A study of Mus musculus with 2 samples.

Results

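Endothelial cells that carry Plvap were examined in mouse hippocampus. Cells were selected on their UMI counts of 12 genes. A cell was taken as a member, called a Plvap cell here, if it had at least 300 detected genes and at most 10% mitochondrial UMIs (unique molecular identifiers, 1 per captured transcript), UMIs of at least 2 of 6 endothelial genes (Flt1, Pecam1, Cdh5, Egfl7, Kdr and Emcn), UMIs of at most 1 of 5 genes of other brain cells (Vtn, Kcnj8, Mog, Aqp4 and C1qa), and at least 2 UMIs of Plvap. This gave 74 Plvap cells, 46 from the Mr1-/- library and 28 from the Mr1+/+ library, out of 11605 kept cells in all (5278 Mr1-/- and 6327 Mr1+/+). They were set against the 3085 other endothelial cells (1578 Mr1-/- and 1507 Mr1+/+), which passed the same endothelial conditions with 0 or 1 UMI of Plvap. The study profiled untreated 7-month-old Mr1-/- mice, which lack MR1, an antigen-presenting relative of MHC class I seen by innate-like T cells, and age-matched Mr1+/+ mice. Hippocampi were dissociated with a kit made for primary neurons, cells that excluded DAPI and took up the DNA dye Draq5 were sorted, and 1 droplet library per genotype was made with a 10x 5' expression kit. The sequenced cells are described as non-neuronal by the series title. The part of Mr1 that is deleted and the number of mice behind each library are not given in the sources used here.

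PLVAP is an endothelial membrane glycoprotein that forms the diaphragms spanning fenestrae and the necks of caveolae. Fenestrated capillaries of the choroid plexus, the circumventricular organs and many endocrine glands carry it, whereas mature capillaries of the blood-brain barrier normally lack it. In barrier endothelium, Wnt and beta-catenin signalling maintains tight junctions and solute transporters and keeps Plvap low.

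There were 5347 barcodes and 18349132 UMIs from Mr1-/- mice, against 6410 barcodes and 23244575 UMIs from Mr1+/+ mice, and the smallest barcode had 501 UMIs in each. Of 44 barcodes seen in both libraries, 1 belonged to a Plvap cell and none joined 2 Plvap cells. Each genotype has a single library, so no result has a replicate check or a test, and genotype cannot be told apart from mouse, dissection, sort or library preparation. All intervals given are 95% intervals that cover counting error only. Those of CPM ratios treat the summed UMIs as independent draws, so the spread between cells is left out of them. The median depth of Plvap cells was 2644 UMIs (range 1133 to 5723) for Mr1-/- and 3129.5 UMIs (range 1129 to 11109) for Mr1+/+, against 2346.5 and 2513 UMIs in the other endothelial cells. Their mitochondrial share had a median of 1.58% and 1.65%, against 2.78% and 2.52% in the other endothelial cells.

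Plvap lies on chromosome 8 of mm10, at chr8:71497765-71511752 on the minus strand. Among endothelial cells it was close to all or nothing. Of the Mr1-/- endothelial cells, 1571 had 0 UMIs of Plvap, 7 had 1, 4 had 2, 8 had 3 to 5, and 34 had at least 6. Of the Mr1+/+ endothelial cells, 1502 had 0 UMIs, 5 had 1, 3 had 2, 5 had 3 to 5, and 20 had at least 6. The median Plvap cell held 9 UMIs of Plvap in the Mr1-/- and 12 in the Mr1+/+ library, with highest values of 28 and 36, so only 12 endothelial cells lay just outside the threshold and 7 just inside. Summed over Plvap cells, Plvap stood at 3481 CPM (the summed UMIs scaled to a common total) in the Mr1-/- and 3686 CPM in the Mr1+/+ library, which is what the choice of cells fixed. Its share of cells with a UMI was 0.488% and 1.12% in microglia, which do not express it and had median depths of 3636 and 3824 UMIs. In the other endothelial cells it was 0.444% and 0.332%, a share that the choice of cells limits to cells with 1 UMI.

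The remaining genes of the choice are given as a description. Egfl7, which encodes a secreted endothelial factor, stood at 3489 and 3441 CPM in Plvap cells of the Mr1-/- and Mr1+/+ libraries, against 2329.6 and 2121 CPM in the other endothelial cells. Pecam1, an adhesion molecule of endothelial junctions, had 744 and 664 CPM in Plvap cells and 531.5 and 529.8 CPM in the others. Kdr, the main VEGF receptor, had 1150.5 and 1021 CPM in Plvap cells and 353.5 and 327 CPM in the others, and Emcn, an endothelial sialomucin, had 3053 and 2624 CPM against 639 and 561 CPM. Flt1 had 1196 and 1072 CPM against 1534 and 1551 CPM, and Cdh5 had 361 and 245 CPM against 249 and 243 CPM. Over all 74 cells, Vtn had 3 UMIs in the Mr1-/- and 1 in the Mr1+/+ library, Kcnj8 and Mog had 1 UMI each in the Mr1-/- library and 0 in the other, and Aqp4 and C1qa had 0. The 3 genes named as markers of these cells (Plvap, Pecam1 and Egfl7) were thus all present in both libraries, in cells chosen with them.

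Plvap cells made up 2.83% of endothelial cells in the Mr1-/- library (46 of 1624, Clopper-Pearson interval 2.08% to 3.76%) and 1.82% in the Mr1+/+ library (28 of 1535, 1.22% to 2.63%). The difference of 1.01 percentage points had an interval of -0.056 to 2.09 (Newcombe) and so was not resolved at this number of cells. After every cell was thinned to 1500 UMIs, which left out 201 and 271 shallower cells, 40 of 1423 Mr1-/- endothelial cells (2.81%) and 22 of 1264 Mr1+/+ endothelial cells (1.74%) still had 2 UMIs of Plvap. Of all kept cells they were 0.872% in the Mr1-/- and 0.443% in the Mr1+/+ library, a difference of 0.429 points (0.136 to 0.748), but this share also moves with how many cells of every other type passed the sort. The dissociation and the sort set both shares, and which region or vessel the cells came from is not recorded.

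When all endothelial cells were clustered without Plvap (15 clusters), 72 of the 74 Plvap cells (97.3%) fell into 1 cluster of 81 cells. These were 45 of the 46 Mr1-/- and 27 of the 28 Mr1+/+ Plvap cells. The cluster was led by Penk, Rbp7, Cd74, Cd24a, Car8, Gpihbp1, Cd300lg, Igfbp3, Esm1 and Slc43a3, genes that were themselves used to cluster. The other 2 Plvap cells stood apart. The Mr1-/- one had 2 UMIs of Plvap with 115 UMIs of Acta2, 53 of Tagln and 36 of Myl9, which are contractile genes of smooth muscle, among 5285 UMIs. The Mr1+/+ one had 5 UMIs of Plvap with 12 of Reln and 9 of Snhg11 among 6951 UMIs, and was the only Plvap cell that Scrublet, a doublet caller, marked as a doublet. It called 171 doublets (3.24%) in the Mr1-/- and 335 (5.29%) in the Mr1+/+ library, 64 and 108 of them among the other endothelial cells. Doublets were kept in the main values. The comparison class was not clean either: 101 Mr1-/- and 152 Mr1+/+ of its cells lay in 5 clusters led by genes of other cell types.

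Summed markers of other cell types were mostly lower in Plvap cells than in the other endothelial cells, with exceptions in 1 library each. Such sums can rest on few cells, so they do not show that Plvap cells were cleaner. All 11 choroid plexus epithelium genes, Ttr included, had 0 UMIs in both libraries, as had the T and B lymphocyte genes. The summed microglia genes stood at 120.3 CPM in Mr1-/- and 91.9 CPM in Mr1+/+ Plvap cells, against 2202 and 2556 CPM in the other endothelial cells, and the fibroblast genes at 0 and 10.2 CPM, against 232 and 185 CPM. A UMI of a microglia gene was found in 13 of 46 and 7 of 28 Plvap cells. In the other endothelial cells it was 266 of 1578 and 337 of 1507. The lower microglia sums thus did not come with a lower share of cells with such UMIs. The oligodendrocyte genes had 331 and 143 CPM, against 2751 and 3179.7 CPM. The pericyte genes had 173 CPM in Mr1-/- and 51.1 CPM in Mr1+/+ Plvap cells, against 76.8 and 107 CPM, and 8 of the 9 Mr1-/- UMIs of Rgs5 lay in 1 cell. The smooth muscle genes were at 1865 CPM in the Mr1-/- library, all of it in the cell with Acta2, and at 61.3 CPM in the Mr1+/+ library, against 603 and 1091 CPM. The neuron and neuroblast genes had 30.1 and 408 CPM, against 281 and 288 CPM, and the lymphatic genes 0 and 123 CPM, against 15.8 and 23.9 CPM. The Mr1+/+ UMIs of the lymphatic list were the 12 of Reln, which stands in both lists and came from 1 cell. The astrocyte sum of 1993 and 1838 CPM, against 5533 and 6567 CPM, came mostly from Cst3 and Clu, which endothelium also expresses. Haemoglobin and other erythroid genes had 0 UMIs in Plvap cells and 2026 and 1049.9 CPM in the other endothelial cells. Those UMIs came from 12 of 1578 Mr1-/- and 7 of 1507 Mr1+/+ cells, so nothing is read from the 0 in Plvap cells.

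Plvap cells differed from the other endothelial cells in many genes, in both directions. Of 3153 genes measured (a mean of at least 50 CPM, with limits on UMIs and on RNA from other cell types), 175 were at least 2-fold higher in Plvap cells of both libraries (5.55%) and 155 at least 2-fold lower in both (4.92%), on the log2 scale with 10 CPM added. In the Mr1-/- library alone the shares were 7.96% and 8.59%, and in the Mr1+/+ library alone 7.9% and 8.56%. Many of the higher genes pass the expression limit only because of their level in Plvap cells. Lower genes such as Slco1c1, Ocln, Lef1 and Mt1 pass it only because of their level in the other endothelial cells. The counts thus describe the cells and are not a measure of how unusual they are. The same limit holds for the counts of higher and of lower genes in every list below. Nrp2, Col15a1, Jam3 and Fkbp5 are examples among the higher genes.

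The gene with the highest ratio was Penk, at chr4:4133531-4138819 (minus strand), the precursor of the enkephalin opioid peptides. It had 173 UMIs in Mr1-/- and 213 UMIs in Mr1+/+ Plvap cells, against 1 and 2 UMIs in the other endothelial cells. Its UMIs came from 10 of 46 and 9 of 28 cells, with up to 66 and 137 in a cell. The median Plvap cell had none, so the sum reflects a minority of the cells. In neurons and neuroblasts, where the gene is known to be used, 17.4% and 12.4% of cells had a UMI.

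Plpp1 and Plpp3 encode membrane phosphatases that remove phosphate from lipid mediators such as lysophosphatidic acid and sphingosine 1-phosphate. Plpp1 had 4399 CPM in Mr1-/- and 2614 CPM in Mr1+/+ Plvap cells, against 96.5 and 109.6 CPM in the other endothelial cells, ratios of 45.6 (40.04 to 51.9) and 23.9 (20.4 to 27.9). Per Plvap cell it ranged from 0 to 46 UMIs (median 10.5) in Mr1-/- and from 0 to 34 (median 7) in Mr1+/+, and 45 of 46 and 26 of 28 cells had it. It was thus detected in nearly all of them, with a wide range of UMIs. Plpp3 had 2339 and 1756 CPM in Plvap cells, against 75.3 and 84.0 CPM, ratios of 31.0 (26.4 to 36.5) and 20.9 (17.3 to 25.2).

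Genes of the surface and the secreted proteins followed. Cd24a, a glycolipid-anchored sialoglycoprotein, had 1632 and 848 CPM in Plvap cells of the Mr1-/- and Mr1+/+ libraries, against 15.5 and 16.8 CPM, ratios of 105 (79.1 to 142) and 50.3 (36.1 to 70.3), and was found in 38 of 46 and 24 of 28 cells. Igfbp3, a binding protein for insulin-like growth factors, had 1932 and 3237 CPM against 43.8 and 60.0 CPM, ratios of 44.1 (36.3 to 53.7) and 53.9 (45.5 to 64.0). Esm1, a secreted proteoglycan known from VEGF-stimulated tip cells, had 57 UMIs in 22 Mr1-/- Plvap cells and 37 UMIs in 15 Mr1+/+ Plvap cells, and 0 in all other endothelial cells, so it was at least 580-fold and at least 516-fold higher against a floor of 3 counts per summed class. Unlike Plpp1, it was undetected in many Plvap cells: the median was 0 UMIs in the Mr1-/- and 1 in the Mr1+/+ library.

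Gpihbp1, which carries lipoprotein lipase to the capillary lumen, had 22 UMIs in 6 Mr1-/- and 86 UMIs in 13 Mr1+/+ Plvap cells, against 2 UMIs in each library's other endothelial cells. Cd300lg, a glycoprotein of capillary and venular endothelium, had 511 and 368 CPM, against 0.246 and 2.44 CPM. Slc43a3, a nucleobase transporter, had 414 and 306 CPM, against 0.492 and 1.95 CPM. Rbp7, a retinoid-binding protein, had 872 and 796.5 CPM, against 0.246 and 0.244 CPM (1 UMI each). These surface and lipid-handling genes were near absent from the other endothelial cells. Car8, a carbonic anhydrase relative without enzyme activity, had 572 and 531 CPM, against 2.22 and 1.22 CPM, and Col13a1, a membrane-spanning collagen, had 49 and 23 UMIs, against 3 and 0. Fam167b had 421 and 306 CPM against 2.71 and 3.42 CPM, and Tcim had 1286 and 970.1 CPM against 27.1 and 53.0 CPM. Cd74 completes the 15 highest and is described with the genotypes.

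**Figure D1:**
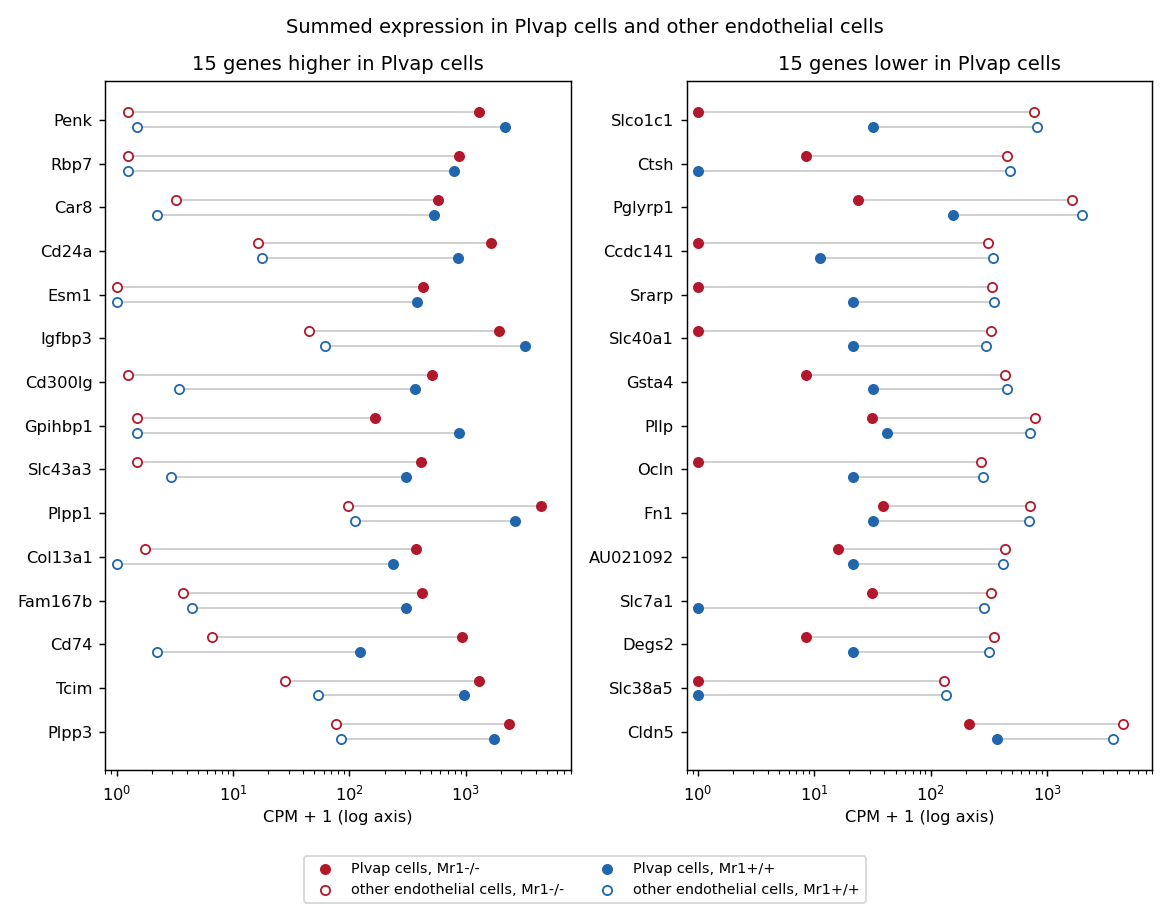
CPM plus 1 (log axis) of the 15 genes with the highest and the 15 with the lowest Plvap-cell ratio, with filled points for Plvap cells and open points for other endothelial cells, in colours for the Mr1-/- and Mr1+/+ libraries. The 2 libraries lie close together for most genes while the classes stand far apart, as for Plpp1 (4399 and 2614 CPM against 96.5 and 109.6 CPM) and Cldn5 (211 and 368 CPM against 4469 and 3630 CPM).

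Of the 16 genes listed for fenestrated capillaries of other organs, 12 were measured. Of these, 11 were at least 2-fold higher in Plvap cells of both libraries, where 5.55% of all genes were, and their median log2 ratio was 4.52 in Mr1-/- and 4.34 in Mr1+/+, where that of all genes was 0.05 and 0.06. Esm1, Exoc3l2, Gpihbp1, Cd24a and Cd300lg passed the expression limit only through their level in Plvap cells, so the count and the median are descriptions that the limit partly fixes, and nothing is read from the comparison with all genes. Besides those already given, Exoc3l2, an exocyst-related gene, had 211 and 123 CPM against 1.48 and 0.732 CPM, and Rgcc, a cell cycle regulator of capillary endothelium, had 3421 and 3411 CPM against 588 and 811 CPM. Scarb1, the receptor for high-density lipoprotein, had 677 and 521 CPM against 239 and 209 CPM. Rasgrp3 was the 1 measured gene within 2-fold (128 and 112 CPM against 132 and 138 CPM). The other listed genes were not measured: Igfbp5, Aqp1 and Npr3 had 0 UMIs in the Plvap cells, and Vegfc had 4 UMIs in each library.

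VEGF receptors and matrix genes were higher in part. Nrp1, a co-receptor for VEGF and semaphorins, had 879.8 and 551 CPM in Plvap cells of the Mr1-/- and Mr1+/+ libraries against 106 and 100.1 CPM, and its relative Nrp2 had 143 and 153 CPM against 19.9 and 19.8 CPM. With Flt4 and Plxnd1, these were the 4 of 10 measured VEGF and angiopoietin genes at least 2-fold higher in both libraries, and none was at least 2-fold lower in both, beside 5.55% and 4.92% of all genes. Tek, the angiopoietin receptor, had 180.5 and 123 CPM against 251 and 258 CPM. In the basement membrane list, 5 of 14 were at least 2-fold higher and 2 at least 2-fold lower in both libraries. Hspg2, the heparan sulfate proteoglycan perlecan, had 647 and 694 CPM against 85.2 and 73.5 CPM, and Col4a1, a chain of collagen IV, had 714 and 868 CPM against 260.5 and 285 CPM. Col15a1, a collagen of vessel walls, had 26 and 17 UMIs against 3 and 1. Nrp2 and Col15a1 passed the expression limit only through Plvap cells, so nothing is read from the comparison of the higher counts with all genes. On the other side Fn1, fibronectin, had 37.6 and 30.6 CPM against 706 and 692 CPM.

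Caveolae carry PLVAP diaphragms too, and most of their coat genes lay within 2-fold of the other endothelial cells. Cav1, the main coat protein, had 444 and 459.5 CPM in Plvap cells and 454 and 464 CPM in the other endothelial cells, and Cav2, Cavin1 and Ehd2 were also within 2-fold in both libraries. Of 11 measured caveola and vesicle genes, 2 were at least 2-fold higher in both libraries and none lower, beside 5.55% and 4.92% of all genes. They were Ehd4, a membrane-remodelling ATPase (1241 and 705 CPM against 63.8 and 74.9 CPM), and Cavin3, a coat protein of caveolae (827 and 878 CPM against 336 and 335 CPM).

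The genes of the blood-brain barrier were low in the same cells. Cldn5, the main claudin of barrier tight junctions at chr16:18776847-18778262 (plus strand), had 28 UMIs in 6 of 46 Mr1-/- Plvap cells and 36 UMIs in 7 of 28 Mr1+/+ Plvap cells. In the other endothelial cells, 98.6% and 96.9% had a UMI of it. Its level was 211 and 368 CPM against 4469 and 3630 CPM, 21.2-fold and 9.88-fold lower (ratios 0.0471, 0.0313 to 0.0681, and 0.101, 0.0709 to 0.140). Ocln, occludin, had 0 and 2 UMIs, against 267 and 282 CPM, at least 11.9-fold lower in the Mr1-/- and 13.8-fold lower in the Mr1+/+ library. Of 11 measured junction genes 5 were at least 2-fold lower in both libraries, beside 4.92% of all genes. Lsr, which recruits tricellulin to tricellular contacts, and Cgnl1 and Tjp1, cytoplasmic partners of the junction, were the others. Ocln passed the expression limit only through the other endothelial cells, so nothing is read from the comparison of the lower count with all genes. Some adhesion molecules of the junction did not follow. Esam had 887 and 1154 CPM against 1058 and 1122 CPM, and Jam3 was higher, with 316 and 184 CPM against 21.7 and 24.9 CPM.

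Solute transporters were low almost throughout. All 21 listed transporters of barrier endothelium were measured, 16 were at least 2-fold lower in Plvap cells of both libraries, and none was higher in both, beside 4.92% of all genes lower and 5.55% higher. The median log2 ratio was -2.61 in the Mr1-/- and -2.28 in the Mr1+/+ library. Members such as Slco1c1, Mfsd2a and Tfrc passed the expression limit only through the other endothelial cells. The count and the median are thus partly fixed by the limit, and nothing is read from the comparison with all genes. Slco1c1, the thyroxine transporter, had 0 UMIs in the 46 Mr1-/- Plvap cells and 3 UMIs in the 28 Mr1+/+ Plvap cells, whereas 77.0% and 76.3% of the other endothelial cells had it (775 and 814 CPM). That makes it at least 34.4-fold lower in the Mr1-/- and 26.6-fold lower in the Mr1+/+ library. Slc2a1, the glucose transporter GLUT1, had 97.8 and 214 CPM against 1264 and 1892 CPM. Slco1a4, an organic anion transporter, had 82.7 and 133 CPM against 1223 and 1209 CPM, and Abcb1a, the efflux pump P-glycoprotein, had 97.8 and 81.7 CPM against 610.03 and 648 CPM. Mfsd2a, which imports docosahexaenoic acid and limits vesicle transport, had 1 UMI and 3 UMIs, against 40.5% and 43.7% of the other endothelial cells with a UMI. Slc40a1, the iron exporter ferroportin, and Tfrc, the transferrin receptor, had 0 UMIs each in the Mr1-/- and 2 and 1 UMI in the Mr1+/+ library. The transporters that were not at least 2-fold lower in both libraries were Abcg2, Slco2b1, Slc3a2, Slc16a1 and Insr.

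The remaining genes with the lowest ratios were of mixed function. Pglyrp1, a peptidoglycan-binding protein, had 3 and 15 UMIs, against 1643 and 1984 CPM. Ctsh, a lysosomal cathepsin, had 1 and 0 UMIs against 454 and 475 CPM, and Pllp, plasmolipin, had 30.1 and 40.8 CPM against 781 and 705 CPM. Ccdc141, Srarp, Gsta4, AU021092, Slc7a1 and Degs2 each had at most 4 UMIs per library in Plvap cells, against at least 284 CPM in the other endothelial cells. Slc38a5, a glutamine transporter, had 0 UMIs in both libraries against 129.7 and 135 CPM, at least 5.75-fold and at least 4.40-fold lower.

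Most measured targets and components of the Wnt pathway were low. Of 20 listed genes 11 were measured. At least 2-fold lower in both libraries were 8 of these 11 and 1 was higher, beside 4.92% and 5.55% of all genes. The median log2 ratios were -1.89 (Mr1-/-) and -2.07 (Mr1+/+). Lef1 and other members passed the expression limit only through the other endothelial cells. The count and the medians are thus partly fixed by the limit, and nothing is read from the comparison with all genes. Lef1, a transcription factor and target of beta-catenin signalling, had 0 and 20.4 CPM in Plvap cells against 163 and 176 CPM, and Foxq1 had 45.1 and 51.1 CPM against 469 and 489 CPM. Apcdd1, Nkd1 and Notum, feedback inhibitors of the pathway, had at most 3 UMIs each per library, and Reck, Foxf2 and Sox17 were lower too. The receptor Fzd4 differed, with 135 and 194 CPM against 82.2 and 102 CPM, as did its co-receptor subunit Tspan12, with 226 and 245 CPM against 48.7 and 50.8 CPM. Adgra2 and Reck, also listed, had UMIs in the Mr1-/- but 0 in the Mr1+/+ Plvap cells. Most measured members were thus low, but not Fzd4 and Tspan12.

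**Figure D2:**
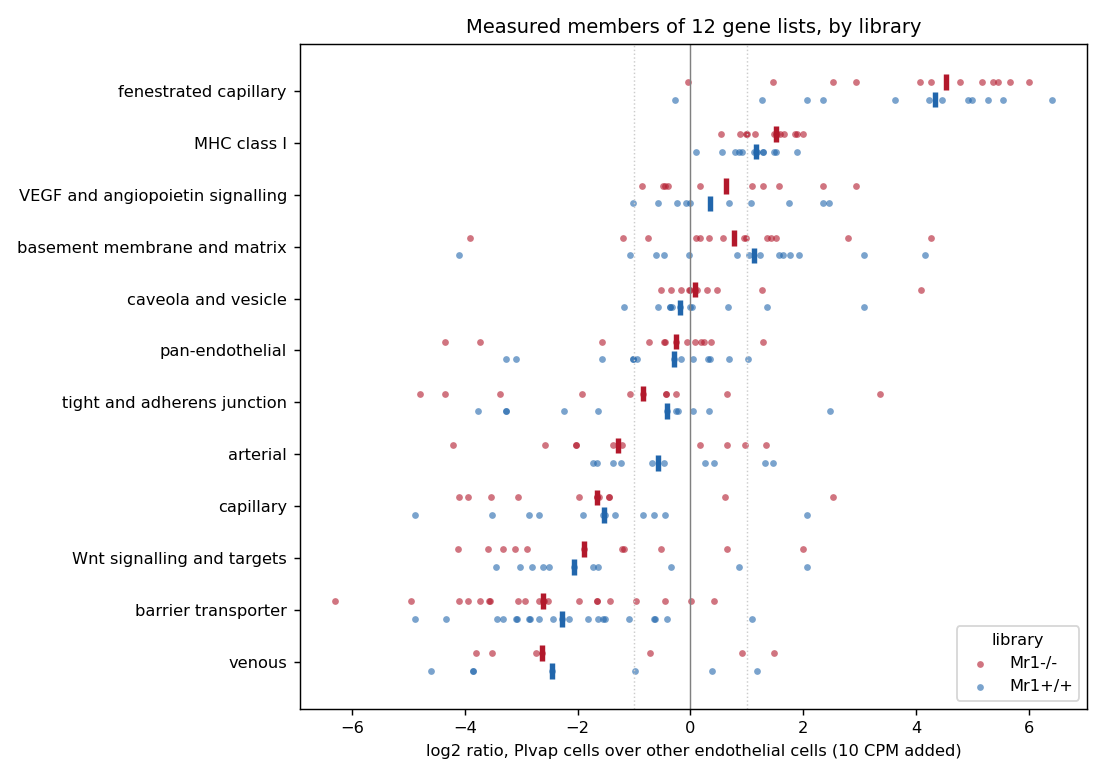
Log2 ratio of Plvap cells over other endothelial cells (10 CPM added) for each measured member of 12 gene lists, as points coloured by library, Mr1-/- and Mr1+/+, with thick ticks for list medians. The fenestrated capillary genes lie at the high end (medians 4.52 and 4.34), the barrier transporter and Wnt genes at the low end (-2.61 and -2.28, and -1.89 and -2.07), and the caveola genes near 0.

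The same UMIs and lists were also viewed cell by cell, which adds no separate support. The lists were chosen with earlier results of these data known, so the order of the shares is partly fixed. The 16 fenestrated capillary genes took 0.204% to 3.73% of a Plvap cell's UMIs in the Mr1-/- library (median 1.76%) and 0.230% to 2.96% in the Mr1+/+ library (median 1.60%), and the 21 barrier transporter genes 0% to 1.15% (median 0.155%) and 0% to 1.03% (median 0.217%). The fenestrated share was above the barrier share in 44 of 46 and 27 of 28 Plvap cells. Endothelial cells with 0 UMIs of Plvap had medians in the opposite order, 0.118% and 0.139% for fenestrated genes and 1.01% and 1.12% for barrier genes. Cells with 1 UMI of Plvap, just outside the threshold, had 0.236% and 0.135% of fenestrated genes (7 and 5 cells), and those with 2 UMIs, just inside it, had 0.999% and 1.25% (4 and 3 cells). With at least 6 UMIs, the fenestrated medians were 1.94% and 1.78%. Cldn5 was 2020 and 2109 CPM at 1 UMI of Plvap, 520 and 1329 CPM at 2 UMIs, and 179 and 332 CPM at 6 or more, but the steps at 1 and 2 UMIs rest on a few cells each and are given without a comparison.

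**Figure D3:**
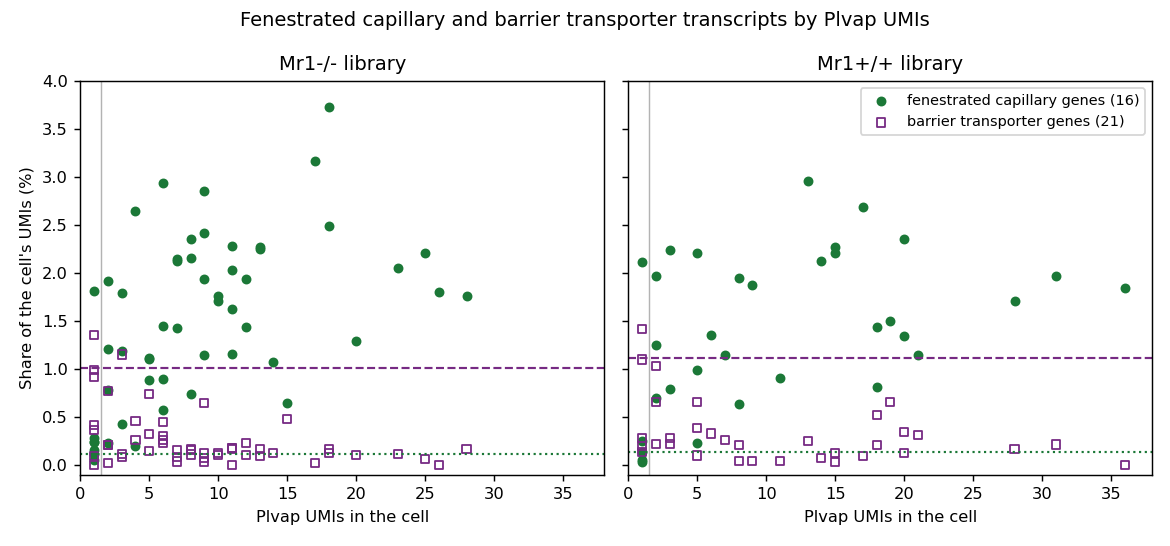
Percent of each cell's UMIs from the 16 fenestrated capillary genes and the 21 barrier transporter genes against its UMIs of Plvap, for endothelial cells with at least 1, Mr1-/- left and Mr1+/+ right. The grey line marks the threshold of 2 UMIs, and the dotted and dashed lines the medians of cells with 0 UMIs (0.118% and 0.139% fenestrated, 1.01% and 1.12% barrier). In 44 of 46 and 27 of 28 Plvap cells the fenestrated share is the higher one.

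Along the vessel tree, fewer Plvap cells than other endothelial cells carried genes of veins and of barrier capillaries. A cell was counted for a segment if it had UMIs of at least 2 genes of that segment. The arterial set was met by 4 of 46 Mr1-/- (8.70%) and 4 of 28 Mr1+/+ Plvap cells (14.3%), against 18.1% and 17.85% of the other endothelial cells, and after thinning to 1500 UMIs by 1 of 43 (2.33%) and 3 of 26 (11.5%), against 15.1% and 12.5%. The thinned Mr1+/+ arterial shares differed by less than counting error. The venous set was met by 2 of 46 (4.35%) and 0 of 28, against 23.4% and 34.2%, and thinned by 1 of 43 (2.33%) and 0 of 26, against 15.9% and 21.9%. The 0 of 28 allows up to 10.7% by 3 counts of the total, or 12.3% by the Clopper-Pearson interval. Vwf, a venous clotting factor, had 3 and 0 UMIs in Plvap cells. The capillary set was met by 19 Mr1-/- (41.3%, 27.0% to 56.8%) and 18 Mr1+/+ Plvap cells (64.3%, 44.1% to 81.4%), against 92.7% and 90.4%, and thinned by 27.9% and 53.8% against 86.8% and 85.3%. Some genes of this set are barrier transporters. The tip-like set, which includes Esm1, was met by 3 (6.52%) and 9 (32.1%), against 0.697% and 1.19%, and thinned by 2 of 43 (4.65%) and 2 of 26 (7.69%), against 0.580% and 0.323%.

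Genes of antigen presentation by MHC class I were higher in Plvap cells. Of 13 measured, 6 were at least 2-fold higher in both libraries and none lower, beside 5.55% and 4.92% of all genes, with median log2 ratios of 1.52 (Mr1-/-) and 1.16 (Mr1+/+). The classical heavy chain H2-K1 had 2436 and 1777 CPM in Plvap cells against 808 and 613 CPM, and H2-D1 had 2354 and 1573 CPM against 841 and 717.5 CPM. Psmb8, a subunit of the immunoproteasome, had 827 and 551 CPM against 281 and 220.1 CPM. H2-Q4, H2-Q6 and H2-Q7 were the others, and as near-identical paralogs they may share reads. Among 16 measured interferon response genes only Rsad2 was at least 2-fold higher in both libraries (436 and 184 CPM against 81.5 and 77.6 CPM), and the list medians were -0.04 and -0.26.

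Heat shock and immediate early genes differed little, while some glucocorticoid and metal-induced genes differed. No heat shock gene of 11 was at least 2-fold apart in both libraries, and of 13 immediate early genes only Fos was higher in both. Of 9 glucocorticoid and stress genes, 1 was at least 2-fold higher and 3 at least 2-fold lower in both libraries, beside 5.55% and 4.92% of all genes. The metallothionein Mt1 had 3 and 1 UMIs in Plvap cells against 1481 and 1351 CPM, and Mt2 had 1 UMI in each. Cdkn1a, the cell cycle inhibitor p21, was the third lower gene, with 226 and 551 CPM against 829 and 1255 CPM. Fkbp5, a co-chaperone of the glucocorticoid receptor and a standard target of it, was the higher gene, with 75.2 and 123 CPM against 6.40 and 14.9 CPM.

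Between the genotypes, Mr1 itself was near the floor. Plvap cells had 0 UMIs of it in the Mr1-/- and 1 in the Mr1+/+ library, and the other endothelial cells 1 and 19 UMIs, in 1 of 1578 and 19 of 1507 cells. Over the 1259 genes measured in the Plvap cells of both libraries, 31 were at least 2-fold higher in Mr1-/- (2.46%) and 24 at least 2-fold lower (1.91%). On simulated counts, 2.74% of unchanged genes were called between genotypes. That value is not split by direction, so it cannot be set against either share alone. The same 1259 genes gave 0 (0.0%) and 0 (0.0%) in the other endothelial cells, whose sums hold far more UMIs (4062125 and 4097520 against 132989 and 97928), so counting error alone differs widely between these classes.

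Among the genes with the highest ratios were 3 of MHC class II presentation, Cd74, H2-Aa and H2-Ab1. Such presentation serves peptides to CD4+ T cells and is used mainly by professional antigen-presenting cells. These genes passed the UMI limit for the genotype comparison only through the Mr1-/- cells, where they were high, and were ranked by that same ratio. Their place among the highest ratios is thus partly fixed by the choice, and nothing is read from it. The same limit holds for other genes named between genotypes on few UMIs. Cd74, the invariant chain that guards the class II groove, had 123 UMIs in 27 of 46 Mr1-/- Plvap cells (58.7%, 43.2% to 73.0%) and 12 UMIs in 2 of 28 Mr1+/+ Plvap cells (7.14%). Its CPM ratio was 7.55 (4.17 to 15.01). After thinning to 1500 UMIs, 20 of 43 Mr1-/- (46.5%) and 2 of 26 Mr1+/+ Plvap cells (7.69%) had it. The median Mr1-/- Plvap cell had 1 UMI and the highest 16, while 11 of the 12 Mr1+/+ UMIs lay in 1 cell. Among the other endothelial cells, 9 Mr1-/- (0.570%) and 3 Mr1+/+ cells (0.199%) had a UMI of Cd74, and among oligodendrocytes, which do not express it, 1 of 998 and 1 of 1533 had one at median depths of 4195 and 4377 UMIs.

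The 2 class II chains measured between the genotypes were also higher. H2-Aa had 37 UMIs in 17 Mr1-/- cells and 4 UMIs in 2 Mr1+/+ cells, a ratio of 6.81 (2.45 to 26.3). H2-Ab1 had 32 UMIs in 17 cells and 5 UMIs in 3 cells, a ratio of 4.71 (1.82 to 15.5). H2-Eb1, which had too few UMIs to pass the limit of 30, had 20 UMIs in 12 cells and 1 UMI, a ratio of 14.7 (2.36 to 610). Over these 4 genes, 15 of 46 Mr1-/- and 1 of 28 Mr1+/+ Plvap cells had at least 5 UMIs, and the 15 cells held 182 of the 212 UMIs. The Mr1-/- UMIs were thus not confined to 1 cell, but most lay in a minority of the cells. For Cd74, the 5 cells with the most held 65 of the 123 UMIs, and 19 of 46 cells had none. The leukocyte and macrophage genes Ptprc, Tyrobp, Lyz2 and Mrc1 had 0 UMIs in all Plvap cells, Ctss and Pf4 had 1 UMI each in the Mr1-/- library, and C1qb had 1 UMI in the Mr1+/+ library. Ciita, the class II transactivator, had 0 UMIs in both.

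**Figure D4:**
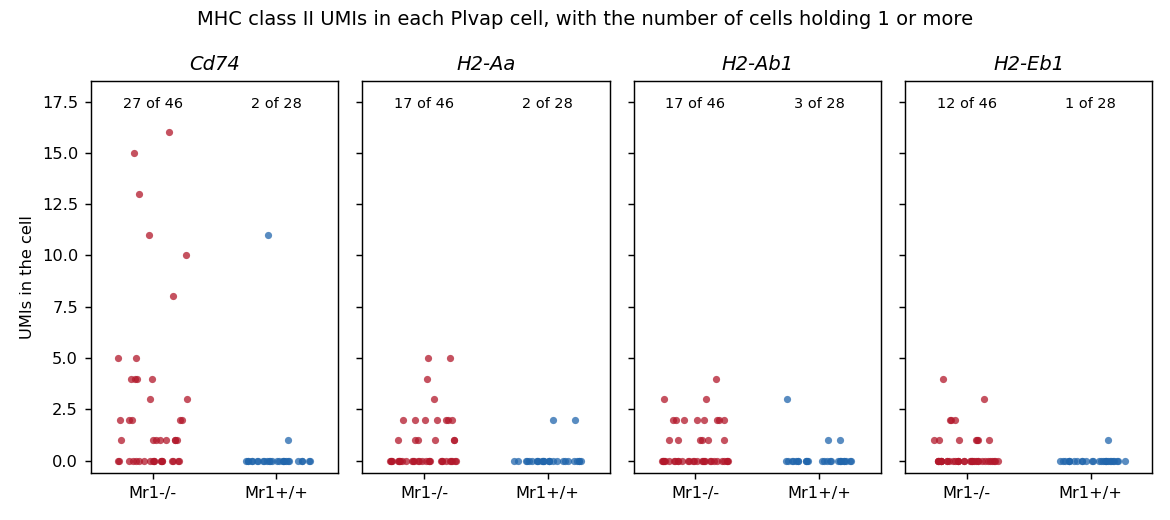
UMIs of Cd74, H2-Aa, H2-Ab1 and H2-Eb1 in each Plvap cell, 46 Mr1-/- cells left of 28 Mr1+/+ cells, with 1 point a cell. In the Mr1-/- library 27 cells had Cd74, and in the Mr1+/+ library 2 cells had it, 1 of them with 11 UMIs.

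Class I genes pointed the same way but less far. Of 13 measured, 12 were higher in Mr1-/- Plvap cells, with a median log2 ratio of 0.58, against 0.34 for the same genes in the other endothelial cells and 0.04 for all genes in Plvap cells. Psmb9, an immunoproteasome subunit, had 66 UMIs in Mr1-/- and 18 UMIs in Mr1+/+ Plvap cells, a ratio of 2.70 (1.58 to 4.83), against 1.47 in the other endothelial cells. Ifi47, an interferon-induced GTPase, had 24 and 7 UMIs, a ratio of 2.52 (1.05 to 6.94). Clec14a, a C-type lectin of endothelium, had 78 UMIs in 37 cells and 23 UMIs in 17 cells, a ratio of 2.497 (1.55 to 4.17), against 1.04 in the other endothelial cells. Anxa7, an annexin, had 34 and 7 UMIs, a ratio of 3.58 (1.56 to 9.56), against 1.01. Emp3, Rasal2, Ushbp1, Rab1b and Tmtc2 had ratios of 2.54 to 3.68 on 25 to 38 Mr1-/- and 5 to 11 Mr1+/+ UMIs. Thinned to 1500 UMIs, the log2 ratio was 0.78 for Emp3, 0.74 for Rab1b, 0.26 for Tmtc2 and 0.91 for Ifi47, all under 2-fold, and it was at least 1.06 for the other genes named here as higher.

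Genes that set Plvap cells apart also differed between the libraries in both directions. Plpp1 was higher in Mr1-/- Plvap cells, with a ratio of 1.68 (1.45 to 1.96), as was Cd24a, with a ratio of 1.93 (1.49 to 2.51), while both were at 0.881 and 0.921 in the other endothelial cells. Igfbp3 was lower, with a ratio of 0.597 (0.504 to 0.706) against 0.730 in the other endothelial cells, and Gpihbp1 was lower, with 22 UMIs in 6 Mr1-/- cells and 86 UMIs in 13 Mr1+/+ cells, a ratio of 0.188 (0.112 to 0.304). Plvap had a ratio of 0.944 (0.821 to 1.09). Cdkn1a had 30 UMIs in 14 Mr1-/- and 54 UMIs in 20 Mr1+/+ Plvap cells, a ratio of 0.409 (0.253 to 0.651), and was lower in the other endothelial cells too, at 0.6605.

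Several of the lower genes rest on 1 Mr1+/+ Plvap cell, the deepest, with 11109 UMIs and 3548 genes, which Scrublet did not call a doublet. It held 82 of the 159 Mr1+/+ UMIs of Tmsb10, an actin-sequestering thymosin, 43 of 86 of Gpihbp1, 31 of 39 of Odc1, the first enzyme of polyamine synthesis, 22 of 25 of Fscn1, the actin bundler fascin, and 16 of 17 of Apln, a tip cell peptide. Tmsb10 had a ratio of 0.394 (0.299 to 0.515) and a log2 ratio of -1.33 with all cells, against -0.70 without the deepest cell of each library. Odc1 had -2.26 with all cells and -0.21 without them, Fscn1 had -1.20 and 1.43, and Gpihbp1 had -2.34 and -1.47. The number of genes at least 2-fold lower was then 15 in place of 24, and the number higher was 28 in place of 31. Lims1, Itga6, Ccnd1, Pam, Degs1, Vdac1 and Tspan9 had 9 to 15 UMIs in the Mr1-/- and 22 to 29 UMIs in the Mr1+/+ library, and their log2 ratios were between -2.26 and -0.82 under every setting tried.

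**Figure D5:**
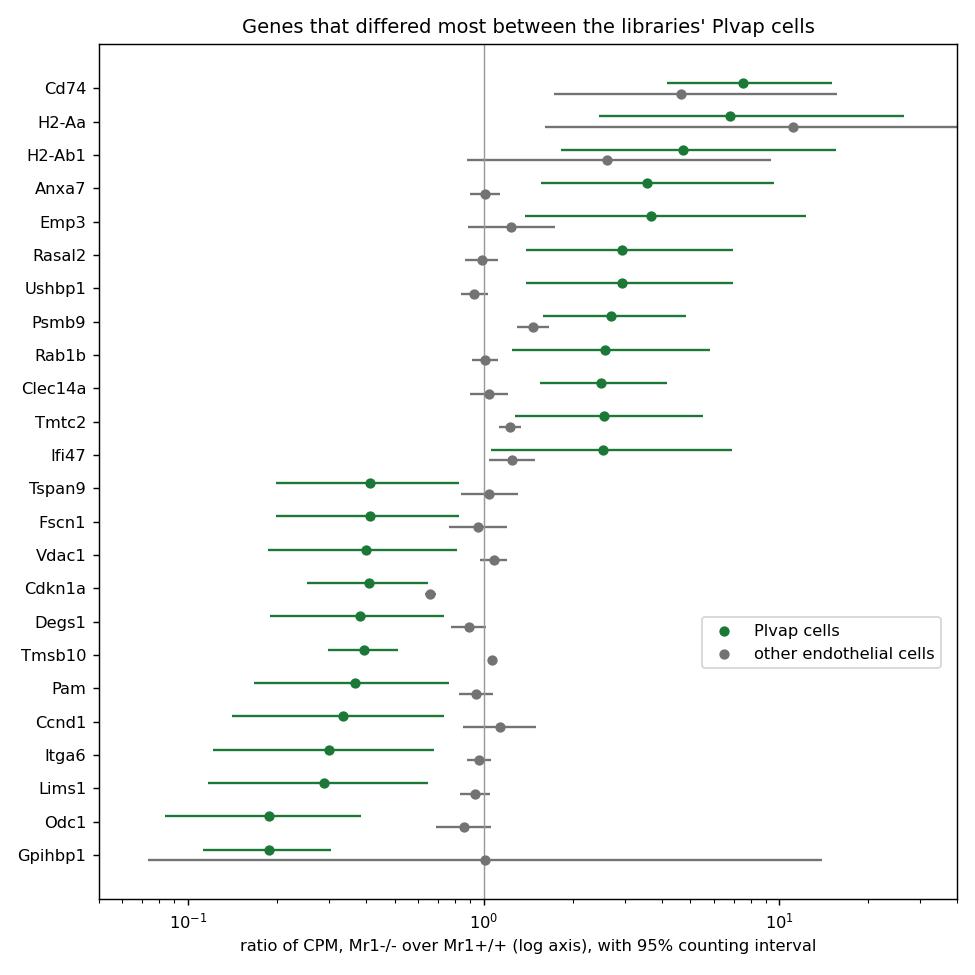
Ratio of Mr1-/- over Mr1+/+ CPM with its 95% interval (log axis, clipped at 0.05 and 40) for the 12 highest and 12 lowest genes in Plvap cells, with the ratio in the other endothelial cells in grey. Cd74 stands at 7.55 and Gpihbp1 at 0.188 in Plvap cells, and the intervals in Plvap cells are wide.

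In class I, 2 of the 13 genes were at least 2-fold higher in Mr1-/- Plvap cells, beside 2.46% of all genes higher and 1.91% lower. Of 11 measured fenestrated capillary genes, 9 were higher in Mr1-/- Plvap cells, with a median log2 ratio of 0.41 against -0.07 in the other endothelial cells, and 1 (Gpihbp1) was at least 2-fold lower. Of 9 basement membrane genes, 7 were lower, with a median of -0.28 against -0.003 in the other endothelial cells, and none at least 2-fold apart. The deepest Mr1+/+ Plvap cell held 83 of the 206 Mr1+/+ UMIs of Sparc and 25 of the 85 of Col4a1, both of this list. Of 11 immediate early genes, 9 were higher (median 0.36), and of 6 glucocorticoid and stress genes 5 were lower (median -0.30, against -0.57 in the other endothelial cells), 2 of them at least 2-fold, Cdkn1a and Ddit4. Ddit4, an inhibitor of mTORC1, had 31 and 49 UMIs, a ratio of 0.466 (0.287 to 0.745), against 0.496 in the other endothelial cells. All 3 measured smooth muscle genes were at least 2-fold higher in Mr1-/- Plvap cells, through the 1 cell with Acta2. Beside these, 675 of all 1259 genes were higher and 584 lower.

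Plvap cells also varied in which genes were detected. Penk and Esm1 were found together in 7 of the 10 Mr1-/- and 5 of the 9 Mr1+/+ Plvap cells with Penk. Esm1 was found in 22 of 46 and 15 of 28 of all Plvap cells. Penk and Gpihbp1 were found together in 0 Mr1-/- cells and 1 Mr1+/+ cell, of 6 and 13 with Gpihbp1. Penk and Cd74 shared 5 Mr1-/- cells and 0 Mr1+/+ cells, where 27 and 2 of all Plvap cells had Cd74. Cldn5 was found in 0 of the 10 Mr1-/- and 3 of the 9 Mr1+/+ cells with Penk, where 6 of 46 and 7 of 28 of all Plvap cells had it. These overlaps were not tested against the shares among all Plvap cells, so no subsets of cells are read from them. At these depths a gene can also be missed in a cell that expresses it.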

How the data were processed

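The deposited files hold raw UMI counts per gene and barcode with no normalization by the authors. The matrix header names Cell Ranger 3.1.0, per the file headers, whereas Cell Ranger 5.1.0, STAR and the mm10 build are named per the submitters' processing notes. The annotation used for counting is not stated there. Gene positions come from GENCODE M21 (mm10), which held 30934 of the 31053 genes by ID.

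Cells were chosen by the rule in the text. UMIs were summed per class and library and scaled to CPM, and log2 ratios were taken after adding 10 CPM. Genes were measured between classes with a mean of at least 50 CPM and at least 20 UMIs in Plvap cells or 50 in the others, between genotypes with at least 50 CPM and 30 UMIs, and in each case with at least 0.2 times the CPM of the cell class where the gene is highest. Mitochondrial, ribosomal protein and haemoglobin genes, Y-linked genes, Xist and Tsix were left unranked. The text names the 15 highest and 15 lowest genes between classes among those past 2-fold in both libraries, the 12 highest and 12 lowest between genotypes whose interval leaves out 1, and of each list the most abundant and most different members. Other genes and pairs of genes in cells were named after their values were seen. The members, the lists and the naming rule were chosen with earlier results of these data known.

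Counts have exact Poisson, shares Clopper-Pearson, share differences Newcombe and CPM ratios exact conditional binomial intervals at 95%. Endothelial cells were clustered with Leiden (resolution 1.0, 15 neighbours, 30 principal components, 2000 variable genes, seed 7), and Scrublet was run at an expected rate of 0.05. On simulated counts for 3153 genes, 98% of 4-fold raised and 86% of 4-fold lowered genes were called between classes and 0.474% of unchanged ones. For 1259 genes between genotypes, the values were 100%, 96% and 2.74%. Software was Python 3.11.15 with leidenalg 0.10.2, scanpy 1.11.5, pandas 2.3.3, scipy 1.17.1, matplotlib 3.10.9, numpy 2.4.6 and anndata 0.12.19.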

Additional observations from a re-analysis of the deposited data

Results flagged for a closer look

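Plvap UMIs were also found outside the endothelial cells, 59 in the Mr1-/- and 86 in the Mr1+/+ library, mostly as single UMIs in 43 and 54 cells. Of these cells 8 and 6 had at least 2 UMIs, and 1 pericyte of the Mr1+/+ library held 26.

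The cluster that held the Plvap cells also took in 7 Mr1-/- cells and 2 Mr1+/+ cells with fewer than 2 UMIs of Plvap, which are not members.

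Tmsb10 was lower in Mr1-/- than in Mr1+/+ Plvap cells, with a ratio of 0.394, against 1.07 in the other endothelial cells. The difference between these ratios was not tested, and 1 Mr1+/+ cell held 82 of the 159 UMIs.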

How the results depend on the processing

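No paired analysis was possible because each genotype is 1 library. Thresholds, normalization, thinning, doublet removal and added CPM were varied, and 3 further settings (the deepest Plvap cell of each library left out, Plvap cells in other clusters left out, comparison cells in the 5 mixed clusters left out) were chosen after seeing the data. Of the main values under these settings, 154 stayed within their limits and 10 moved. The share difference stayed between 0.852 and 1.16 percentage points. The count of genes higher in Plvap cells ranged from 117 to 227 (main 175), and the lower count was 419 with no CPM filter (main 155) and between 114 and 181 otherwise. Between genotypes the higher count was 12 with 50 CPM added (main 31), and the lower count (main 24) was 11 thinned to 1500 UMIs, 10 with 50 CPM added and 15 without the deepest cells. Lists with a genotype median of at least 0.5 from 0 (main 2) numbered 1 with 3 or more Plvap UMIs, 4 with each cell weighing the same and 1 without cells in other clusters. Thinned to 1500 UMIs, the arterial share of Mr1-/- Plvap cells was 2.33% and the tip-like share of Mr1+/+ Plvap cells 7.69%. The Fscn1 genotype ratio turned from a main log2 value of -1.20 to 0.15 with each cell weighing the same and to 1.43 without the deepest cells. The smooth muscle list, which 1 Mr1-/- Plvap cell decides, had a median log2 ratio of 1.47 in that library and -4.27 with 3 or more Plvap UMIs, -3.80 with 0 of the 5 other-cell genes and -4.17 without cells in other clusters. In the Mr1+/+ library it was -3.31, and 0.19 without the mixed comparison clusters. Median-of-ratios scaling moved the median of all genes by under 0.1. With 46 Mr1-/- and 28 Mr1+/+ Plvap cells, genes under about 30 UMIs were not measured between genotypes.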
